A study of Homo sapiens with 12 samples.

Results

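The 9 genes described here encode 2 BET bromodomain proteins and the components and regulators of P-TEFb, the kinase that releases paused RNA polymerase II. They were taken by symbol (BRD2, BRD3, CDK9, CCNT1, CCNT2, HEXIM1, HEXIM2, LARP7 and MEPCE) from a table of 28512 genes. No threshold on their values was used, but earlier results of these data were known when they were chosen. All 9 passed the filter on low values. Polyadenylated RNA was measured in SUM159, MDAMB231 and HCC1806 cells, 3 established lines of triple-negative breast carcinoma. Cells of each line received for 72 h either DMSO as vehicle, the BET bromodomain inhibitor JQ1, GSK2801, which inhibits the bromodomains of BAZ2A and BAZ2B, or both inhibitors, and each combination of line and treatment gave 1 library, 12 in all. GSK2801 was given at 10 µM in every line, whereas the JQ1 dose was 300 nM in SUM159, 100 nM in MDAMB231 and 500 nM in HCC1806. The medium of HCC1806 was RPMI with 10% serum, and that of the other lines was DMEM/F12 with hydrocortisone, insulin and 5% serum, so effects of line, dose of JQ1 and medium cannot be told apart. The 3 lines served as the replicates of a treatment, and cell line was a term of the fit. An error or p-value given for a treatment therefore measures how far treatment effects varied between lines, with all treatments sharing 1 estimate. The spread between cultures of 1 line was not measured.

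BET proteins bind acetylated histones through paired bromodomains and help recruit the transcription machinery to chromatin, and JQ1 occupies the pocket that binds the acetylated lysine. P-TEFb consists of the kinase CDK9 and a cyclin, T1 (CCNT1) or T2 (CCNT2). A large part of it is held inactive in a small ribonucleoprotein built on 7SK RNA, in which HEXIM1 or HEXIM2 inhibits the kinase, MEPCE caps the RNA and LARP7 binds and stabilises its end. HEXIM1 RNA is widely used as a marker of exposure to BET inhibitors.

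Sequences just before an annotated start are shown for 4 of the genes, because the results below set BRD2 beside BRD3, and HEXIM1 beside HEXIM2. They come from RefSeq promoter sequences of GRCh38.p14, the 250 bases on the strand of the gene that end at the base before an annotated start. Bases within exons of coding genes were left out. HEXIM2 is therefore shown as 220 bases, without the last 30 before its start, and BRD2 as 149 bases. Capitals mark matches on either strand to 7 motifs that were searched: the TATA box TATAAA, the CCAAT box CCAAT, the GC box GGGCGG, the E-box CACGTG, the AP-1 site TGANTCA, the cAMP response element TGACGTCA and the ETS site CCGGAAGT. The windows are chr17:45148225-45148474 (plus strand) for HEXIM1, chr17:45161625-45161844 (plus) for the downstream of the 2 listed HEXIM2 starts, chr6:32968445-32968593 (plus) for the most upstream of the 4 listed BRD2 starts, and chr9:134068027-134068276 (minus) for BRD3.
HEXIM1: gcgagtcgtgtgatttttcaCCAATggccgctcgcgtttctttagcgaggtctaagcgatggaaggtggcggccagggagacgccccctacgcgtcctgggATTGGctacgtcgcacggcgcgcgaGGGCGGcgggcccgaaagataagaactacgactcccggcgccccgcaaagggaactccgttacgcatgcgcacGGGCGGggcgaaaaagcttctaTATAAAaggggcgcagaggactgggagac
HEXIM2: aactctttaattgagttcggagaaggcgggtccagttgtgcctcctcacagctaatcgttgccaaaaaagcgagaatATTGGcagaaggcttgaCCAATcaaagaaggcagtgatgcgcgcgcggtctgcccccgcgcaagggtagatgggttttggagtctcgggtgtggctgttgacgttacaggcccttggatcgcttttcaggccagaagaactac
BRD2: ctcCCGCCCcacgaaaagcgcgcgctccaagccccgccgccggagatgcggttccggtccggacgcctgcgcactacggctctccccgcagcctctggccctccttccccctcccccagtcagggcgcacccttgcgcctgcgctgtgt
BRD3: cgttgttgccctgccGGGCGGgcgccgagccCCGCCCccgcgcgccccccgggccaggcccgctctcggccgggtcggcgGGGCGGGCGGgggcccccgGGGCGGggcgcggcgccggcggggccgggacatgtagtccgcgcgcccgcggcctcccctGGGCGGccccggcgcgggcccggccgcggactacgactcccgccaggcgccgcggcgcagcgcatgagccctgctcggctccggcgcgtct
The HEXIM1 window held 1 TATA box, 2 CCAAT boxes and 2 GC boxes, and the HEXIM2 window held 2 CCAAT boxes. The BRD2 window held 1 GC box and the BRD3 window 6, of which 2 overlap in 1 run. The full 250 bases of HEXIM2 and BRD2 held the same matches as the stretches shown. Other starts of these genes gave other matches. The upstream HEXIM2 window, chr17:45159924-45160173, held 0 TATA, 0 CCAAT and 0 GC boxes. Of the BRD2 windows not shown, those from 32970680 and 32972834 each held 1 GC box and that from 32971345 held 0. The window from 32970680 also held 1 AP-1 site. A difference in matches between genes therefore holds only for the starts shown. Over 35116 RefSeq promoters of 250 bases, 10.7% held a TATA box, 32% a CCAAT box and 42.6% a GC box, against 6.34% for the E-box, 6.57% for the AP-1 site, 1.65% for the cAMP response element and 3.42% for the ETS site. These matches describe letters only. In the GENCODE annotation of GRCh38 (hg38), HEXIM1 (ENSG00000186834.3, chr17:45148502-45152101) and HEXIM2 (ENSG00000168517.10, chr17:45160700-45170040) are neighbours on the same strand with 8598 bases between them. BRD2 (ENSG00000204256.12) lies at chr6:32968660-32981505 and BRD3 (ENSG00000169925.16) at chr9:134030305-134068535. The printed windows of HEXIM2 and BRD3 lie within these gene spans, so they precede an internal start and not the whole gene.

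Library depth was between 24200000 and 46800000 estimated reads, and 15766 to 16797 genes had a value above 0. Values are normalized reads, which the authors scaled so that the upper quartile of the values above 0 was 1663.93 in every library. Some marker genes separated HCC1806 from the other lines. EPCAM was 11492 to 15287 in HCC1806 and at most 374.5 in the others. Vimentin (VIM) was at least 90380 in SUM159 and MDAMB231 and at most 173.3 in HCC1806. Not every listed marker followed this split. The mesenchymal marker CDH2 was 705 to 1412 in HCC1806, 5173 to 7151 in SUM159 and only 4.65 to 17.3 in MDAMB231. The epithelial marker KRT14 was 1.14 to 91.6 in HCC1806, a range that overlapped SUM159 (1.17 to 42.5). Of the receptor genes, PGR was listed at 0 in all libraries of SUM159 and HCC1806 and reached 12.1 in MDAMB231. ESR1 was 102.4 to 137.8 in HCC1806 and at most 12.9 in the other lines. ERBB2 RNA was present in every line, at 3084 to 4142 in SUM159, 1749 to 2335 in MDAMB231 and 4325 to 6456 in HCC1806. HBB and LEP were at 0 in all 12 libraries. SUM159 also carried markers of other cell types, which were lower in both libraries with JQ1 than in both without it. The endothelial marker PECAM1 read 730 with DMSO, 227 with JQ1, 1145 with GSK2801 and 290 with both, the mural and fibroblast marker PDGFRB 1385, 294, 1637 and 307, and the collagen gene COL1A1 46871, 19899, 37932 and 10269. The summed blood and endothelial markers in SUM159 were 1163, 233, 1210 and 297 in that order and the fibroblast and adipocyte markers 48440, 20206, 39796 and 10589, against at most 19.2 and 440 in any library of the other lines. Without SUM159, BRD2 and HEXIM1 still passed with JQ1 and with both inhibitors, and the part of these markers in the other results was not tested.

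Compared per length, BRD2 was the most abundant of the 9 genes in untreated cells and HEXIM2 the least. Normalized reads per kilobase of the longest transcript in the 3 DMSO libraries were 1607 ± 126 (SD, n = 3) for BRD2, 783 ± 75.3 for HEXIM1, 653 ± 123 for CDK9, 571 ± 191 for LARP7 and 538 ± 196 for MEPCE. They were 342 ± 52.4 for CCNT1, 286 ± 55.5 for BRD3, 177 ± 30.5 for CCNT2 and 66.7 ± 9.18 for HEXIM2. The ranges of neighbours in this order overlapped from HEXIM1 down to BRD3, while BRD2 lay above HEXIM1, BRD3 above CCNT2 and CCNT2 above HEXIM2 in every line. With the union of all exons as the length, BRD2 was at 1072, LARP7 at 326 and below MEPCE, CCNT2 at 135 and HEXIM2 at 50. HEXIM2 rested on 38.7 to 153 estimated reads per library, against at least 580 for each of the others.

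Of the BET genes, BRD2 rose with JQ1 and with the combination. Its normalized reads in SUM159 were 8577 with DMSO, 19240 with JQ1, 11224 with GSK2801 and 28911 with both. In MDAMB231 they were 7509, 12676, 9233 and 17739 in the same order, and in HCC1806 7508, 16440, 8695 and 21530. The 3 JQ1 libraries all lay above the 3 DMSO libraries, and so did the 3 GSK2801 libraries, the nearest of which exceeded the highest DMSO library only narrowly. JQ1 raised BRD2 by 1.02 ± 0.12 on the log2 scale (SE, 2.02-fold, adjusted p = 0.0015), with per-line folds of 2.24 in SUM159, 1.69 in MDAMB231 and 2.19 in HCC1806. Without HCC1806 the adjusted p was 0.0526 at a log2 difference of 0.96. With both inhibitors BRD2 was 1.5 ± 0.12 above DMSO (2.84-fold, adjusted p = 1.5e-04). With GSK2801 alone it was 0.30 ± 0.12 above DMSO, with an adjusted p of 1.

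BRD3, the other BET gene, rose by a smaller amount, a difference between the 2 genes that was not tested. It read 1794, 2086, 2034 and 2134 in SUM159 for DMSO, JQ1, GSK2801 and both, 1253, 1471, 1391 and 1745 in MDAMB231, and 1797, 2498, 2094 and 2458 in HCC1806. Every treated library was above the DMSO library of its own line, but the groups overlapped because MDAMB231 was low throughout. The log2 difference was 0.31 ± 0.09 with JQ1 (1.24-fold, adjusted p = 0.0424) and 0.39 ± 0.09 with both (1.31-fold, adjusted p = 0.0112). The JQ1 call passed in only 6 of 27 alternative analyses and was lost when any 1 of 10 of the 12 libraries was left out (all but the combination libraries of SUM159 and MDAMB231). The call with both inhibitors was lost without MDAMB231 (adjusted p = 0.0648) or without HCC1806 (adjusted p = 0.0698). BRD3 shares 1281 exon bases with the antisense gene BRD3OS, and the labels name both a stranded kit and one that does not mark strand, so reads of the 2 genes may not be separable. The same limit holds for BRD2, which shares 577 of its 7337 exon bases with the antisense gene AL645941.3, and for HEXIM1, which shares 520 of 3600 with AC138150.1. It also holds for LARP7, which shares 302 exon bases with AC106864.1, for CCNT2 (148 with CCNT2-AS1) and for MEPCE (203 with ZCWPW1), each on the opposite strand.

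**Figure D1:**
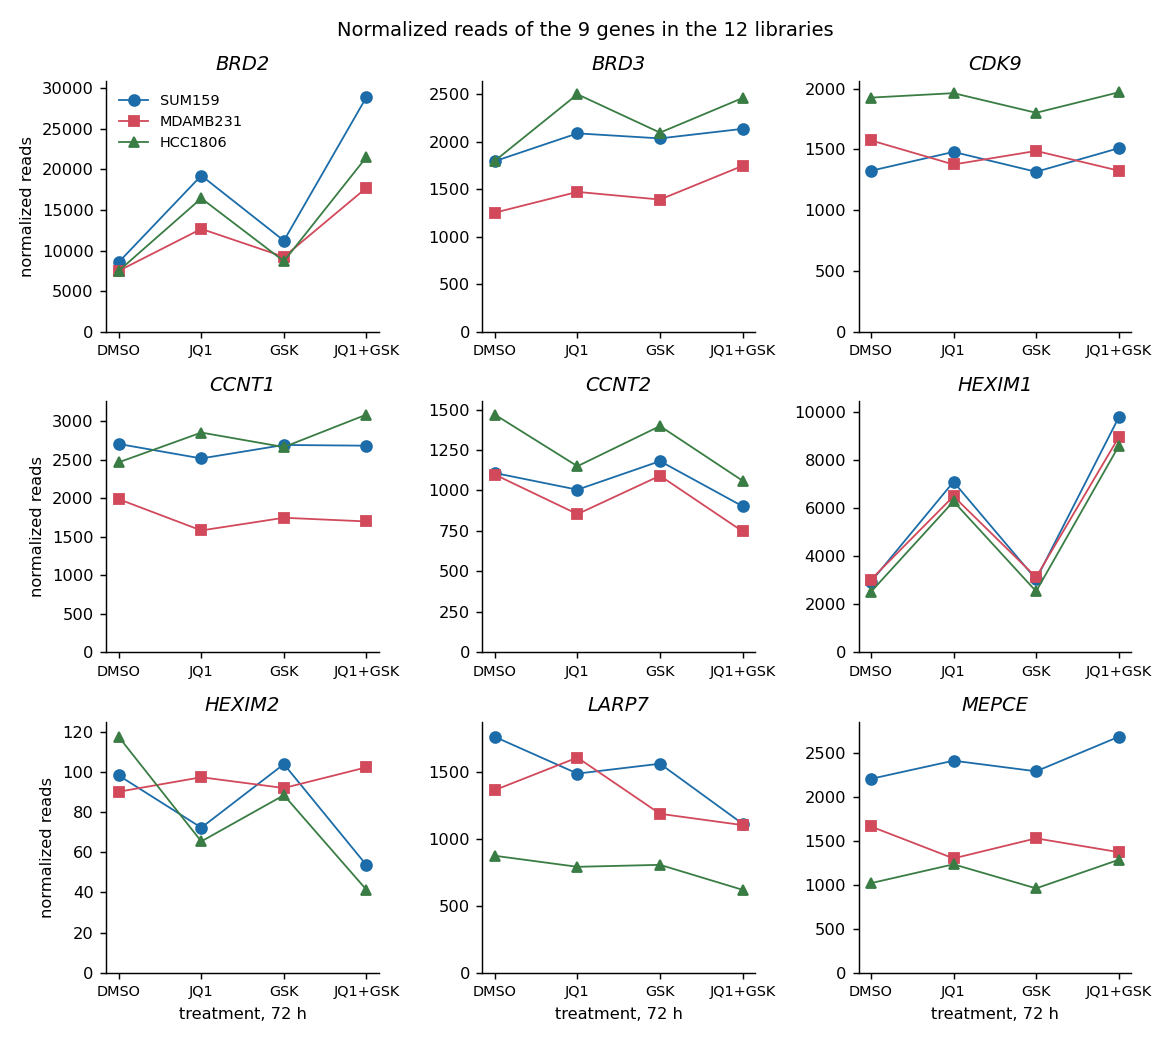
Normalized reads (vertical axis, linear from 0) of the 9 genes in the 4 treatments (horizontal axis, 72 h), with 1 point per library and a line joining the libraries of each cell line. BRD2 and HEXIM1 were higher with JQ1 and highest with both inhibitors in all 3 lines, whereas HEXIM2 was below its DMSO value with JQ1 and with both in SUM159 and HCC1806 and above it in MDAMB231.

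Of the P-TEFb subunits, neither the kinase nor cyclin T1 passed the test in any treatment comparison. CDK9 read 1324, 1479, 1316 and 1510 in SUM159, 1574, 1376, 1487 and 1325 in MDAMB231 and 1926, 1962, 1801 and 1969 in HCC1806 for DMSO, JQ1, GSK2801 and both. HCC1806 was the highest line under every treatment, and the treated groups overlapped with DMSO. The log2 difference with JQ1 was -0.002 (95% interval -0.24 to 0.23), and with both inhibitors -0.01 (-0.25 to 0.23). CCNT1 read 2706, 2518, 2693 and 2683 in SUM159, 1989, 1582, 1747 and 1699 in MDAMB231 and 2467, 2854, 2666 and 3088 in HCC1806. Its interval with both inhibitors was -0.23 to 0.28.

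Cyclin T2 fell with the combination. CCNT2 read 1108 with DMSO, 1005 with JQ1, 1181 with GSK2801 and 902.4 with both in SUM159, 1098, 853.7, 1091 and 747.1 in MDAMB231, and 1469, 1150, 1398 and 1060 in HCC1806. All 3 combination libraries lay below all 3 DMSO libraries. CCNT2 fell by 0.44 ± 0.09 on the log2 scale against DMSO (adjusted p = 0.00684) and was -0.29 ± 0.09 with JQ1 alone (adjusted p = 0.055). The combination call was lost without MDAMB231 (adjusted p = 0.0563) or HCC1806 (adjusted p = 0.0612).

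Among the inhibitors and the 7SK-binding proteins, HEXIM1 was the gene with the smallest p of the 9 under JQ1 and under the combination. It read 2928 with DMSO, 7082 with JQ1, 3029 with GSK2801 and 9756 with both in SUM159, 3018, 6483, 3119 and 8933 in MDAMB231, and 2510, 6270, 2532 and 8566 in HCC1806. The JQ1 libraries lay above every DMSO library and the combination libraries above every JQ1 library. JQ1 raised HEXIM1 by 1.23 ± 0.08 on the log2 scale (2.35-fold, adjusted p = 7.0e-04) and the combination raised it by 1.69 ± 0.08 (3.23-fold, adjusted p = 6.6e-05). The folds with JQ1 were 2.15 in MDAMB231 at 100 nM, 2.42 in SUM159 at 300 nM and 2.50 in HCC1806 at 500 nM. They stood in the order of the doses, with 1 line at each dose. The BRD2 folds, 1.69, 2.24 and 2.19 in the same lines, did not. For HEXIM1, GSK2801 alone gave 0.04 ± 0.08 (95% interval -0.15 to 0.22).

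HEXIM2, the lower-expressed relative of HEXIM1, passed in no treatment comparison. It read 98.2, 72.2, 103.8 and 53.5 in SUM159, 90.1, 97.3, 91.9 and 102.2 in MDAMB231, and 117.4, 65.3, 88.4 and 41.2 in HCC1806. The combination libraries of SUM159 and HCC1806 were the lowest of their lines, while that of MDAMB231, the line given the lowest JQ1 dose, was the highest of its line. The log2 difference was -0.39 ± 0.31 with JQ1 (adjusted p = 0.391) and -0.72 ± 0.31 with both (adjusted p = 0.0984), neither of which passed. Without the MDAMB231 combination library the latter was -1.07 with an adjusted p of 0.0258. HEXIM2 shares 1026 exon bases with the antisense gene AC138150.2.

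LARP7 read 1760, 1486, 1559 and 1111 in SUM159, 1362, 1605, 1186 and 1101 in MDAMB231, and 872.3, 789.9, 804.8 and 618.3 in HCC1806. In each line the combination library was the lowest, but the groups overlapped because HCC1806 was low under every treatment. LARP7 fell by 0.49 ± 0.12 on the log2 scale with both inhibitors (adjusted p = 0.0142) and was -0.05 ± 0.12 with JQ1 (adjusted p = 0.794). The combination call was lost without SUM159 (adjusted p = 0.119), without HCC1806 (0.103), or without the DMSO (0.0619) or combination (0.053) library of SUM159. MEPCE read 2208, 2415, 2294 and 2687 in SUM159, 1665, 1302, 1530 and 1373 in MDAMB231, and 1020, 1235, 960.5 and 1286 in HCC1806. It was higher with JQ1 than with DMSO in SUM159 and HCC1806 and lower in MDAMB231, and its log2 difference over the 3 lines was 0.02 ± 0.14 (adjusted p = 0.943).

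Counted together, 3 of the 9 genes passed with JQ1, all higher, where 22.6% of the 14232 genes tested passed, 9.52% higher and 13.1% lower. With both inhibitors 5 of 9 passed, 3 higher and 2 lower, where 34.8% of genes passed, 15% higher and 19.8% lower. Each of these counts is a larger share of the 9 genes than of all genes tested, but the difference was not tested and the genes were chosen with earlier results of these data known, so nothing is read from the group. Groups that did not overlap were seen for 2 of 9 genes with JQ1 (9.6% of genes), for BRD2 with GSK2801 (0.696%) and for BRD2, HEXIM1 and CCNT2 with both (13.1%). The median log2 difference of the 9 genes was -0.002 with JQ1, the value of CDK9, and 0.03 with both, against -0.08 and -0.09 over all genes tested. Of all genes called with JQ1, 58.0% were lower with the deposited scaling and 47.8% after TMM rescaling. The comparisons with DMSO share the DMSO libraries.

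**Figure D2:**
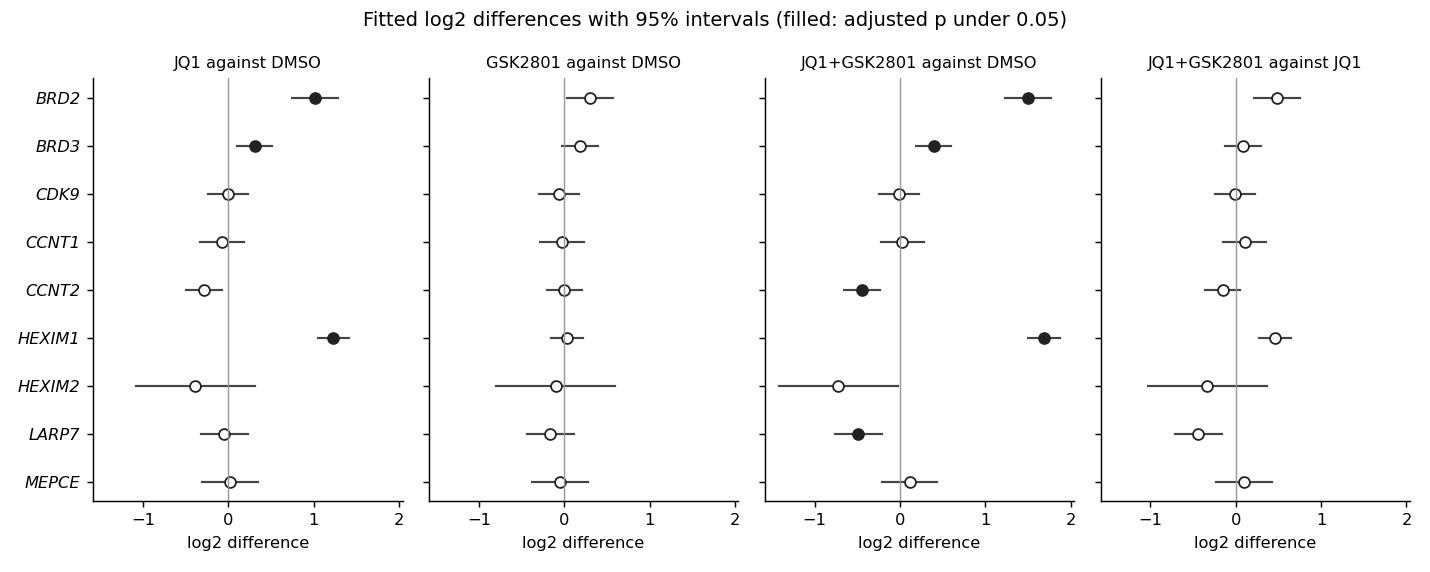
Log2 differences fitted over the 3 lines (horizontal axis) for each gene (vertical axis) in 4 comparisons, with 95% intervals as bars and filled points where the adjusted p was under 0.05. Filled points stand for 3 genes with JQ1, none with GSK2801, 5 with both inhibitors against DMSO and none with both against JQ1.

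GSK2801 alone gave no call among the 9 genes or among all 14232 (0%) by limma. At an unadjusted p under 0.05, 161 genes passed (1.13%), BRD2 among them (unadjusted p = 0.0326). The comparison of both inhibitors with JQ1 asks what GSK2801 added to JQ1, and no gene passed there either (0%), with 1031 at an unadjusted p under 0.05 (7.24%). HEXIM1 was nonetheless 1.38-fold, 1.38-fold and 1.37-fold higher with both than with JQ1 in SUM159, MDAMB231 and HCC1806, a log2 difference of 0.46 ± 0.08 (unadjusted p = 3.3e-04, adjusted p = 0.325), and its groups did not overlap (2.16% of genes). BRD2 was 0.49 ± 0.12 higher (adjusted p = 0.453) and LARP7 was -0.44 ± 0.12 (adjusted p = 0.494), both in the same direction in all 3 lines. When each line was given a JQ1 effect of its own, so that differences between lines in their response to JQ1 no longer entered the error, 871 genes passed (6.12%, of which 2.89% higher and 3.23% lower). HEXIM1 (adjusted p = 0.0111), BRD2 (0.0164) and LARP7 (0.0168) were then among them, with unaltered log2 differences. The departure of the combination from the sum of the 2 single effects was 0.42 ± 0.12 for HEXIM1 on the log2 scale (unadjusted p = 0.00536, adjusted p = 1), and no gene passed that test (0%), with 171 at an unadjusted p under 0.05 (1.2%).

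Against GSK2801 alone, the combination gave calls for HEXIM1 (1.65 ± 0.08, adjusted p = 1.1e-04), BRD2 (1.21 ± 0.12, adjusted p = 4.6e-04) and CCNT2 (-0.44 ± 0.09, adjusted p = 0.00833), where 29% of genes passed, 11.8% higher and 17.2% lower. The groups did not overlap for the same 3 genes (11.1% of genes). The CCNT2 call was lost without MDAMB231 (adjusted p = 0.0607) or HCC1806 (adjusted p = 0.0625). BRD3 (0.21 ± 0.09, adjusted p = 0.12) and LARP7 (-0.33 ± 0.12, adjusted p = 0.0741) did not pass. Of all genes called, 59.2% were lower with the deposited scaling and 47.5% after quantile normalization.

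Ratios between 2 genes of the same library do not change when the library is scaled by a single factor, as the upper quartile and TMM do, but can change with quantile normalization. Per kilobase, HEXIM1 stood to CDK9 as 1.51 with DMSO, 3.28 with JQ1, 1.58 with GSK2801 and 4.42 with both in SUM159. The ratios were 1.31, 3.22, 1.43 and 4.61 in MDAMB231 and 0.892, 2.19, 0.962 and 2.98 in HCC1806. Every library with JQ1 had a higher ratio of HEXIM1 to CDK9 than every library without it, and HCC1806 had the lowest ratio under each treatment. The ratio of HEXIM2 to CDK9 was lower with JQ1 than with DMSO in SUM159 (0.0786 against 0.119) and HCC1806 (0.0537 against 0.0983) and higher in MDAMB231 (0.114 against 0.0922). For HEXIM1 to LARP7, SUM159 had 1.08 with DMSO and 5.69 with both inhibitors, MDAMB231 had 1.43 and 5.25, and HCC1806 had 1.86 and 8.97. With the union of exons as the length these became 1.89 and 9.96, 2.51 and 9.2, and 3.26 and 15.7. For HEXIM1 to MEPCE the same comparison gave 1.12 and 3.06, 1.53 and 5.48, and 2.07 and 5.61. The ratio of CCNT1 to CCNT2 was 2.42, 1.80 and 1.67 with DMSO and 2.95, 2.26 and 2.89 with both. BRD2 stood to BRD3 as 5.52, 6.92 and 4.82 with DMSO and 15.6, 11.7 and 10.1 with both. These are ratios of RNA and say nothing of the proteins.

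**Figure D3:**
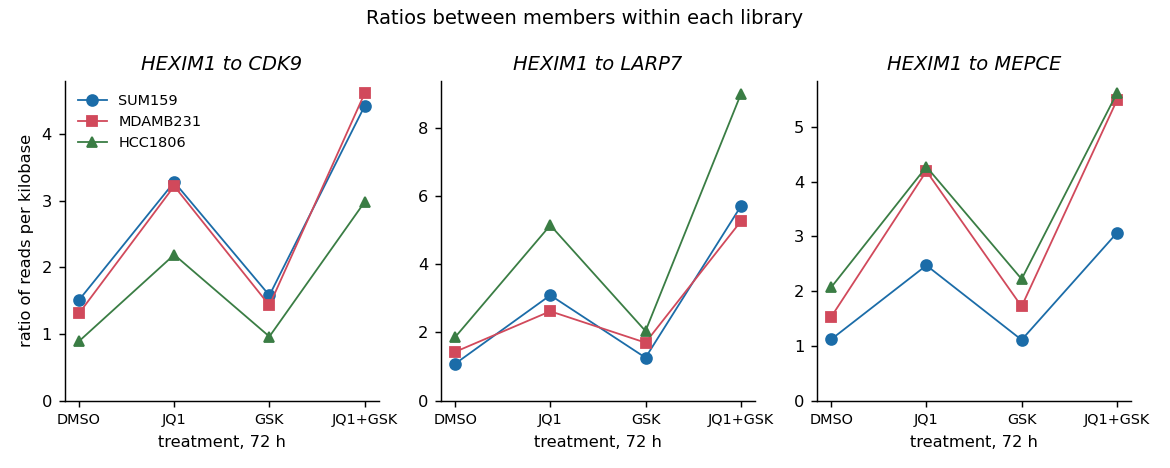
Ratio of HEXIM1 to CDK9, LARP7 and MEPCE in normalized reads per kilobase of the longest transcript (vertical axes, linear from 0) by treatment (horizontal axis, 72 h), with 1 point per library. In SUM159 the ratio to CDK9 was 1.51 with DMSO and 4.42 with both inhibitors, and in each line the libraries without JQ1 lay below those with JQ1 in all 3 panels.

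The lines also differed in their levels of these genes. In these tests the 4 libraries of a line share that line, so the p-values measure how far differences between lines varied over treatments. LARP7 and MEPCE were lowest in HCC1806, with log2 differences from SUM159 of -0.93 ± 0.11 (adjusted p = 4.1e-05) and -1.10 ± 0.13 (adjusted p = 4.2e-05), and from MDAMB231 of -0.76 ± 0.11 (adjusted p = 1.5e-04) and -0.39 ± 0.13 (adjusted p = 0.0198). The last of these was lost without the DMSO or GSK2801 library of either line (adjusted p from 0.067 to 0.0744). CDK9 was higher in HCC1806 than in SUM159 (0.45 ± 0.09, adjusted p = 0.00181) and MDAMB231 (0.41 ± 0.09, adjusted p = 0.00278). CCNT1 was lowest in MDAMB231, by 0.60 ± 0.10 against SUM159 (adjusted p = 6.0e-04) and 0.66 ± 0.10 against HCC1806 (adjusted p = 2.4e-04), and BRD3 likewise, by 0.47 ± 0.08 (adjusted p = 8.5e-04) and 0.59 ± 0.08 (adjusted p = 1.3e-04). In all, 4 of 9 genes passed between SUM159 and MDAMB231 (60.4% of all genes), 6 of 9 between HCC1806 and SUM159 (70%) and 6 of 9 between HCC1806 and MDAMB231 (70.3%), so the 9 genes did not pass more often than genes at large. Quantile normalization moved the median of all genes between HCC1806 and SUM159 from -0.01 to -0.12.

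Whether the JQ1 effect differed between lines was tested by setting HCC1806 against the mean of the others. MEPCE passed, 1 of 9 genes where 25.1% of all genes passed, with a JQ1 effect 0.39 ± 0.11 higher in HCC1806 (adjusted p = 0.0391). That call was lost after TMM rescaling (adjusted p = 0.0598), without a filter on low values (0.0572), without a variance trend (0.0973), and when any library other than the GSK2801 and combination libraries of MDAMB231 was left out (0.0773 to 0.194). For HEXIM1 the difference was 0.14 ± 0.18 (95% interval -0.28 to 0.57) and for BRD2 0.16 ± 0.12 (-0.11 to 0.43).

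Around P-TEFb, 35 genes of transcription elongation were listed, of which 34 were in the table and tested: the super elongation complex, the pausing factors NELF and DSIF, the PAF complex, other transcription kinases, FACT and related factors. With JQ1, 9 of 34 passed, 3 higher and 6 lower, where 22.6% of all genes passed, and the median of the list was -0.13 against -0.08 over all genes. With GSK2801 none passed (0% of all genes), with none at an unadjusted p under 0.05. With both, 15 of 34 passed, 7 higher and 8 lower (34.8% of all genes), with a median of -0.01 against -0.09. RTF1, a subunit or partner of the PAF complex, rose with JQ1, reading 3922 with DMSO and 5865 with JQ1 in SUM159, 2497 and 3721 in MDAMB231, and 4158 and 6502 in HCC1806 (0.60 ± 0.07, adjusted p = 0.00175). SSRP1, a subunit of the histone chaperone FACT, fell from 10691 to 6255, 16369 to 8104 and 14886 to 9706 in the same lines (-0.80 ± 0.11, adjusted p = 0.00207). The calls of these 2 genes held when any line or library was left out. AFF1, a scaffold of the super elongation complex that brings P-TEFb to chromatin, rose by 0.85 ± 0.17 (adjusted p = 0.00892), with log2 differences of 0.72 in SUM159, 0.45 in MDAMB231 and 1.39 in HCC1806. That call was lost without SUM159 (adjusted p = 0.0763) or without HCC1806 (adjusted p = 0.0722, at 0.58), and with the 6 libraries compared alone (0.0635). JMJD6, a demethylase and hydroxylase linked to release of P-TEFb from 7SK, fell by 0.73 ± 0.12 (adjusted p = 0.00493), a call lost without HCC1806 (adjusted p = 0.0699) or with those 6 libraries alone (0.0589). The NELF subunit NELFA was -0.37 ± 0.09 (adjusted p = 0.0199), the TFIIH kinase cyclin CCNH -0.49 ± 0.12 (0.0207), the super elongation complex gene MLLT1 -0.35 ± 0.09 (0.0213) and CCNK, the cyclin of CDK12 and CDK13, -0.34 ± 0.09 (0.0262). These 4 calls were each lost when any 1 of the 3 lines was left out, and with 6, 5, 4 and 6 of the 12 single libraries left out in that order. The CCNK call was also lost after TMM rescaling (adjusted p = 0.0552), after quantile normalization (0.0535) and without a variance trend (0.0502). CCNK shares 4893 exon bases with CCDC85C and CCNH 771 with RASA1, each on the opposite strand.

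**Figure D4:**
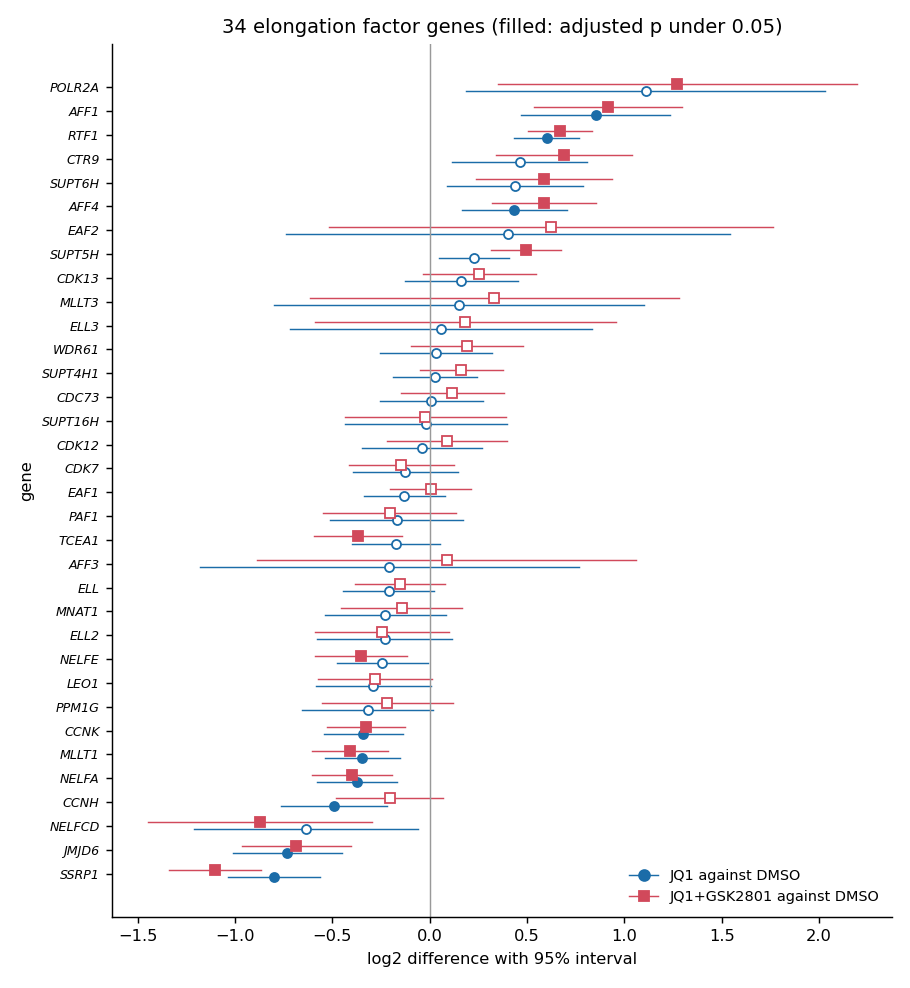
Log2 differences with 95% intervals (horizontal axis) of the 34 elongation genes (vertical axis, ordered by the JQ1 difference) for JQ1 against DMSO (circles) and both inhibitors against DMSO (squares), filled where the adjusted p was under 0.05. With JQ1, 9 genes are filled and with both inhibitors 15, on both sides of 0.

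The genes most like HEXIM1 and BRD2 over the 12 libraries were found by the Pearson correlation of log2 values after the mean of each line was removed, which is a description over libraries that share 3 lines. For HEXIM1 they were QSOX1 (r = 0.998), EIF4EBP2 (0.995), MARCKSL1 (0.994), SCYL2 (0.993) and STIM2 (0.992). QSOX1 had a log2 difference of 1.06 with JQ1, 0.09 with GSK2801 and 1.41 with both. For BRD2 they were LRPAP1 (0.992), DOPEY2 (0.992), WDR47 (0.991), GPRIN1 (0.991) and NAXE (0.990). DOPEY2 had a log2 difference of 1.19 with JQ1, 0.32 with GSK2801 and 1.63 with both, beside 1.02, 0.30 and 1.5 for BRD2.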

How the data were processed

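Polyadenylated RNA of 12 libraries was sequenced. The submitters' processing notes name STAR 2.4, Salmon 0.60 and hg38, and the order and settings are not given in the sources used here. The labels name 2 library kits, so strand use is open. The deposited values are a signal: the authors' normalized reads per gene, scaled to an upper quartile of 1663.93 in each library. Only 67.1% to 69.2% of values were whole multiples of 1 read (tolerance 0.02), so counts were not recovered and no count test was run. Of 28539 entries, 27 with symbols turned into dates were dropped.

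Genes with a mean of at least 10 (14232) were tested on log2(value + 1), a scale that understates changes of low genes, with limma 3.58.1 in R 4.3.3 (variance trend), with treatment and cell line as terms and Benjamini-Hochberg adjustment over all tested genes at 0.05. The JQ1 effect of HCC1806 was tested with JQ1 and GSK2801 effects for each line. Lines pair the libraries: deviations from treatment means correlated at 0.872 to 0.972 within a line and -0.578 to -0.306 between lines. The fits were run on data simulated from the fitted model, with independent noise and the same added JQ1 shift in every line. Such data cannot show how the fits behave where lines respond differently. Alternatives covered the pseudocount, filters, scaling (trimmed mean of M-values, TMM, and quantile), trend, replicate block, a 1.5-fold threshold and left-out lines or libraries. Fits with a line or library left out kept the 14232 genes. In a first version the filter was applied again to the libraries left, and the fixed gene set was adopted after those values had been seen, so both are given for left-out lines.

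All 9 members are named, and so are the 8 elongation genes of smallest p with JQ1 and the 5 genes most correlated with HEXIM1 and with BRD2. Members and lists were chosen with earlier results of these data known. Gene positions and lengths came from GENCODE on GRCh38 and promoters from RefSeq on GRCh38.p14, where all 9 members matched.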

Additional observations from a re-analysis of the deposited data

Results flagged for a closer look

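The JQ1 effect on MEPCE differed between HCC1806 and the mean of the other lines by 0.39 on the log2 scale (limma, adjusted p = 0.0391), a call lost after TMM rescaling, without a filter on low values, without a variance trend and when any of 10 of the 12 libraries was left out. In 5 further cases the lines moved in opposite directions, both without and with the other inhibitor, and these differences were not tested. For HEXIM2 the JQ1 effect in MDAMB231 exceeded that in SUM159 and HCC1806 by 0.96 (0.13 against -0.82), and its GSK2801 effect in MDAMB231 exceeded that in HCC1806 by 0.58 (0.05 against -0.53). For CDK9 the JQ1 effect in SUM159 and HCC1806 exceeded that in MDAMB231 by 0.31 (0.13 against -0.18), and for MEPCE by 0.52 (0.26 against -0.26). For CCNT1 the JQ1 effect in HCC1806 exceeded that in MDAMB231 by 0.40 (0.21 against -0.18). In these differences the line, its medium and its dose of JQ1 cannot be told apart.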

How the results depend on the processing

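No called direction was reversed under any alternative, but 80 values of the 9 genes and 49 of the named elongation genes changed sign while passing in neither fit. Without the replicate block of cell lines, JQ1 gave 0 members, 0 genes and 0 elongation genes, both inhibitors against DMSO 2, 41 and 0, and against GSK2801 1, 3 and 0. HEXIM1 then had an adjusted p of 0.135 with JQ1 and 0.0233 with both. With only the 6 libraries compared, JQ1 gave 755 genes and 3 elongation genes, both against DMSO 2 members, 1012 genes and 2 elongation genes, and both against GSK2801 300 genes and 1 elongation gene. With a threshold of 1.5-fold, JQ1 gave 1 member, 120 genes and 0 elongation genes, both against DMSO 2, 733 and 1, and both against GSK2801 416 genes and 1 elongation gene, while the lines SUM159 and MDAMB231 differed in 0 members and 4068 genes, HCC1806 and SUM159 in 2 and 5536, and HCC1806 and MDAMB231 in 0 and 5672. A JQ1 effect for each line gave 3 members, 871 genes and 2 elongation genes between both inhibitors and JQ1. With a line or library left out, JQ1 gave 1 to 4 members, 402 to 3726 genes and 2 to 11 elongation genes, both against DMSO 2 to 6, 2666 to 4784 and 6 to 15, and both against GSK2801 2 to 4, 1647 to 3954 and 5 to 14. The JQ1 gene count was lowest without HCC1806 (402 genes and 1 member), and with the filter applied again, added after the data were seen, that value was 681 genes and 2 members, BRD2 having an adjusted p of 0.0415. That added filter gave 1773 and 1580 JQ1 genes without SUM159 and without MDAMB231, and without SUM159, MDAMB231 and HCC1806 it gave 3255, 3236 and 2886 genes for both against DMSO (8, 12 and 7 elongation genes) and 2496, 2522 and 1939 for both against GSK2801. With the genes kept, the JQ1 count was 1643 without SUM159 and 1532 without MDAMB231, and 1713, 1647, 1785 and 1493 without the DMSO or JQ1 library of MDAMB231 or of HCC1806. The JQ1 effect in HCC1806 against the other lines called 0 members without a filter, after TMM rescaling and without a variance trend (2156 genes), 2 after quantile normalization, and 0 to 2 members and 371 to 3147 genes with a library left out. For both against GSK2801 the gene count was 2587 and 2419 without the GSK2801 library of MDAMB231 or of HCC1806, and for the line difference in the JQ1 effect it was 644, 648, 415 and 371 without the DMSO, JQ1, GSK2801 or combination library of HCC1806 and 1937 to 2146 without a library of SUM159. Among left-out lines with the genes kept, elongation calls were fewest without HCC1806. GSK2801 alone and the departure from additivity gave 0 genes under every alternative run. Depth was lowest for HEXIM2, which rested on 38.7 to 153 estimated reads per library and had the largest error of the 9 genes in the treatment comparisons.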
